A study of Homo sapiens with 14 samples.

Results

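The early response of NT2 cells to retinoic acid (RA) was described by comparing 2 libraries taken at day 5 of RA with 2 libraries of untreated cells at day 0, which are 4 of the 14 RNA sequencing libraries of the study. The 4 libraries were chosen by their titles alone. NT2 is a human embryonal carcinoma line, a tumour line that resembles the pluripotent embryo and can be driven toward several fates, and the study concerns nucleotide excision repair (NER) during that differentiation. The untreated group is labelled as having received no agent. The RA group was treated with all-trans RA at a final concentration of 10 µM, given from a stock in dimethyl sulfoxide (DMSO) to induce neurons, for 5 days with regular medium changes. Libraries of RA day 10 and of day 5 of bone morphogenetic protein 2 (BMP2), the agent given to induce muscle, were used for the direct comparisons, and RA day 21 only for values side by side. All groups are this 1 line in the same serum-containing medium, and the dose of BMP2 is not given per library. DMSO control cultures were not analysed here, so RA, its solvent and 5 days in culture cannot be told apart in the comparison with day 0.

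RA is made from vitamin A by retinol and retinaldehyde dehydrogenases, is carried inside the cell by cellular binding proteins and is broken down by enzymes of the CYP26 family. It acts through nuclear receptors, the RARs, which pair with RXRs on RA response elements in DNA and exchange corepressors for coactivators when RA binds. In the embryo RA patterns the hindbrain and spinal cord, and in embryonal carcinoma cells it ends self-renewal and starts differentiation, with HOX genes among its best known targets. The HOX clusters and the core pluripotency factors were set aside here in favour of the other genes.

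The classical RA response element is a direct repeat of 2 hexamers with 5 bases between them, called DR5. The start regions of CYP26A1 (an RA-degrading enzyme) and RARB (a receptor) are shown because both genes rose and because they were the only 2 genes called higher at day 5 whose 250 bases before an annotated start held this motif. The motif was searched on both strands as any pair of the hexamers AGGTCA or AGTTCA or GGGTCA or GGTTCA with 5 bases between them, and the 17 bases that matched are in capitals within 77 bases of the plus strand. The sequences come from RefSeq promoters on GRCh38.p14, while the counts were made on hg19.
CYP26A1: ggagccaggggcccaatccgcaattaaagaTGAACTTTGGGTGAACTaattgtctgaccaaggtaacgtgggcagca
RARB: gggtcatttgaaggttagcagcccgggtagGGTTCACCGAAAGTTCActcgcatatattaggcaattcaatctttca
The CYP26A1 stretch lies at chr10:93073773-93073849, where the match is on the minus strand, reads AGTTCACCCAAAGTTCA and lies 90 to 74 bases before the start. The RARB stretch lies at chr3:25428180-25428256, with the match on the plus strand 53 to 37 bases before a start of that gene. Of the 13529 genes tested that had a start region in the table, 9 (0.0665%) held the motif, and of all 35116 start regions 26 (0.0740%) did. Among the 816 genes called higher that had a start region the share was 2 (0.245%), and among the 425 called lower it was 0. The repeats spaced by 2 bases and by 1 base, searched with the same hexamers, were found before 0 and 1 of the 816. A match is a description of these letters, not of binding, and more distant elements were not searched.

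Total counts were 50475226 and 75754396 in untreated replicates 1 and 2 and 49461120 and 67087209 in RA day 5 replicates 1 and 2, within the range of 45773278 to 75754396 over all 14 libraries. Levels are given as CPM, the counts of a gene relative to the library total scaled by TMM factors, always in the order replicate 1 and replicate 2, and may include reads in introns. Changes are log2 fold changes ± SE from a fit over all 14 libraries (edgeR quasi-likelihood test), and a gene was called where its Benjamini-Hochberg adjusted p was under 0.05. "Rose" and "fell" are used of called genes only. No label tells if replicates were grown as separate cultures, so the spread behind each p may be partly technical. An exact permutation test of 2 against 2 libraries cannot go below p = 0.333 (two-sided), so none is given per gene. Log2 CPM correlated with r = 0.980 between the untreated replicates, 0.974 between the RA day 5 replicates and 0.931 to 0.945 across the groups, over genes, which are not independent replicates. The RA day 5 replicates were the less alike pair. With 0.5 CPM added to each value, 960 genes (5.02%) lay over 2-fold apart between them, against 492 (2.57%) between the untreated replicates. This offset leaves out many differences of genes at low levels. In summed CPM, replicate 1 held more RNA of mesoderm, trophoblast, keratin and collagen genes and replicate 2 more of hindbrain genes. Several of these sums were led by single genes, as detailed below. Because of such differences list counts are also given without each of the 4 libraries. RNA of a whole culture was measured, so fewer cells of a type and less RNA per cell cannot be told apart.

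Of 19142 genes tested, 1591 were called between RA day 5 and untreated day 0 (8.31%), 1070 higher (5.59%) and 521 lower (2.72%). The rises were the larger changes. The median log2 fold change was 1.99 among genes that rose, 889 of which rose at least 2-fold and 235 at least 16-fold, and -1.30 among genes that fell, 313 of which changed at least 2-fold and 31 at least 16-fold. Over all genes tested the median was -0.0016. Of the genes that rose, 125 lay under 0.1 CPM at day 0, 54 of them without a single count there, and 30 of the 125 reached at least 5 CPM at day 5. The libraries of the groups did not overlap for any of the 1591 genes, and 60.8% of all genes tested did not overlap either. The number of calls depended on single libraries. It was 551 without untreated replicate 1, 345 without untreated replicate 2, 462 without RA day 5 replicate 1 and 943 without RA day 5 replicate 2, fits in which the single library left in a group takes its spread from the other groups. Libraries outside the comparison moved it too: there were 2879 calls without both BMP2 day 10 libraries, 2809 and 2810 without replicate 1 or 2 of that group, and 973 and 979 without RA day 21 replicate 1 or 2. Calls that held in each of the 14 fits that left out 1 library numbered 220 of the 1070 higher (20.6%) and 56 of the 521 lower (10.7%), and a gene of this kind is described below as held in all 14 fits. The split between directions moved with the tool and its settings. Higher calls made up 67.3% with edgeR and TMM, 62.5% with edgeR and RLE size factors and 56.1% with DESeq2. With limma on RPKM as deposited they made up 66.1% at an offset of 0.1 and 53.3% at an offset of 1, and on RPKM scaled by the TMM factors 58.6% and 45.3%.

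**Figure D1:**
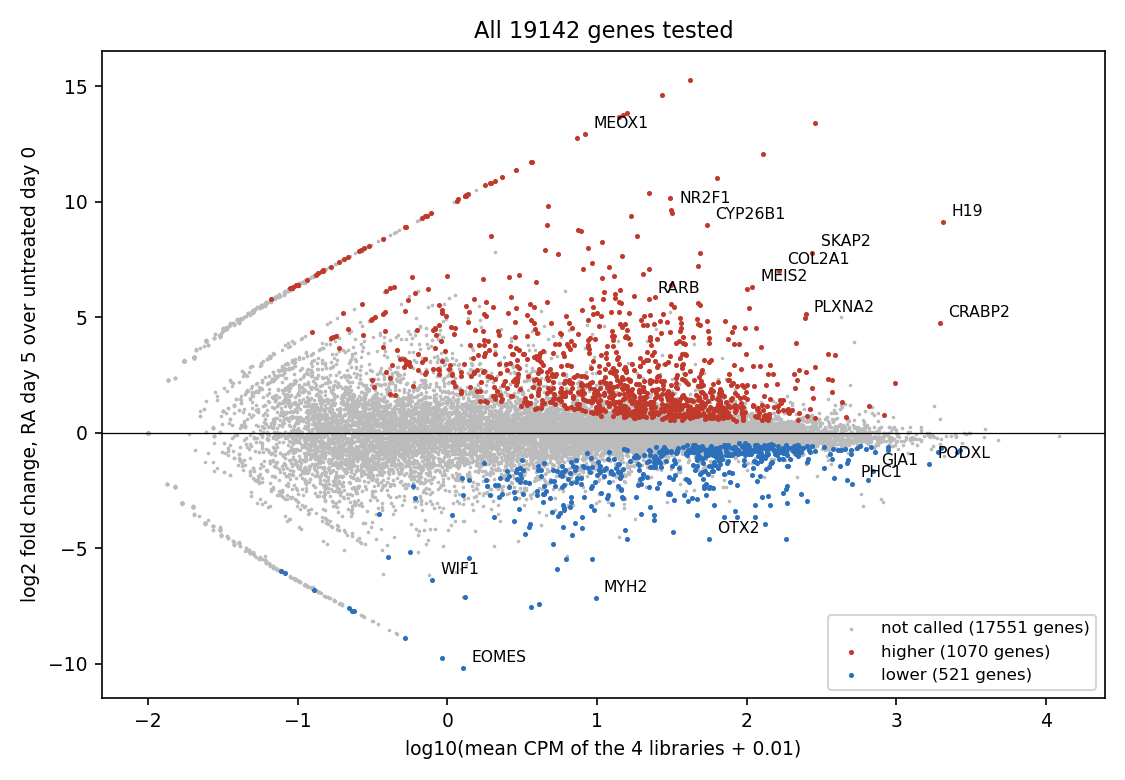
Each point is 1 of the 19142 genes tested, with the log10 of its mean CPM over the 4 libraries (plus 0.01) on the horizontal axis and the log2 fold change of RA day 5 over untreated day 0 on the vertical axis. The 1070 genes called higher (red) reach log2 fold changes above 10, while most of the 521 called lower (blue) lie between 0 and -5, and the straight outer edges are genes without a count in a group, whose fitted values are no bounds.

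The labels were first checked on genes known to answer RA and on markers of the starting cells. CYP26A1 was at 8.66 and 19.3 CPM in the untreated libraries and 609 and 361 CPM at RA day 5, and RARB went from 0.446 and 1.13 to 44.4 and 43.6 CPM. Both RA libraries lay far above both untreated ones for each gene. RARB stood at a similar level with BMP2 day 5, as described below. It therefore separates the RA libraries from the untreated ones but not from the BMP2 libraries, whereas CYP26A1 was higher with RA than with BMP2. Of 6 embryonal carcinoma markers, NANOG and DPPA4 fell (log2 fold changes -3.98 ± 0.98 and -2.04 ± 0.21), while POU5F1 (-2.64 ± 1.19, adjusted p = 0.207), SOX2 (-0.92 ± 0.61, adjusted p = 0.396), LIN28A (-1.03 ± 1.28, adjusted p = 0.672) and L1TD1 (-3.19 ± 0.90, adjusted p = 0.057) did not pass the test. POU5F1 stood at 1011 and 1006 CPM at day 0 and 159 and 164 CPM at day 5. L1TD1 stood at 966 and 1200 CPM and at 89.0 and 148 CPM. SOX2 stood at 315 and 305 CPM at day 0 and 109 and 218 CPM at day 5. LIN28A stood at 2536 and 3050 CPM and at 1097 and 1637 CPM. For each of these genes every RA library lay below every untreated one. Markers of other cell types were mixed. Among neuronal markers STMN2 lay at 0.366 and 0 CPM at day 5, while MAP2, at 30.9 and 33.4 CPM at day 0 and 59.0 and 84.7 CPM at day 5 (1.16 ± 0.36, adjusted p = 0.0754), and DCX, at 21.1 and 5.26 and 23.7 and 32.1 CPM (1.09 ± 0.59, adjusted p = 0.3), were read in every library without passing. Markers near 0 at day 5 were SOX10 of neural crest (0.0203 and 0.0583 CPM), SOX17 of endoderm (0.0814 and 0 CPM), TBXT of the primitive streak (0 in both libraries) and PTPRC of blood (0.0814 and 0 CPM). Several other markers of these types did not pass. TFAP2B of neural crest was at 0 and 0.111 CPM at day 0 and 0.793 and 1.37 CPM at day 5 (adjusted p = 0.13). FOXA2 of endoderm, without a count at day 0, was at 0.0814 and 0.671 CPM (adjusted p = 0.0548). MIXL1 of mesoderm was at 3.02 and 1.20 CPM at day 0 and 2.40 and 0.671 CPM at day 5. AFP, TBX6 and HBB did not pass either. FOXD3 of neural crest, described below, fell. Of 3 fibroblast markers DCN was at 0 in both RA libraries, but COL1A1 was at 6.21 and 19.98 CPM at day 0 and 199 and 50.2 CPM at day 5 (3.25 ± 1.07, adjusted p = 0.0948) and COL3A1 at 114 and 4.73 CPM at day 5, without passing. The muscle marker ACTC1 was at 5.41 and 17.6 CPM at day 0 and 48.7 and 5.06 CPM at day 5 (1.22 ± 0.97, adjusted p = 0.487), with overlapping groups, and GATA3 of trophoblast and ectoderm, described below, rose. COL1A1, COL3A1, ACTC1 and GATA3 were all higher in RA replicate 1 than in replicate 2.

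Among the RA receptors, RARA and RARB rose and the other RARs and RXRs did not pass. RARB, the receptor gene long known as an RA target, went from 0.446 and 1.13 to 44.4 and 43.6 CPM, a log2 fold change of 5.78 ± 0.60 (adjusted p = 0.000663). RARA, the most widely expressed RAR, went from 7.18 and 8.57 to 72.2 and 47.8 CPM, a change of 2.93 ± 0.23 (adjusted p = 0.000151). For both genes every RA library lay above every untreated one, and both calls held in all 14 fits. RARG, at 31.5 and 20.5 CPM at day 0 and 23.3 and 21.8 CPM at day 5, had a change of -0.21 ± 0.47 (adjusted p = 0.838). The RXR partners were at 57.9 and 77.7 CPM for RXRA (0.40 ± 0.26, adjusted p = 0.382), 8.93 and 9.39 CPM for RXRB (0.85 ± 0.25, adjusted p = 0.0624) and 6.67 and 5.75 CPM for RXRG (2.38 ± 0.91, adjusted p = 0.139) at day 5. None of the 8 other members tested was called, and their changes ran from -0.55 ± 0.16 (adjusted p = 0.0609) for HDAC3, a deacetylase of corepressor complexes, to 1.11 ± 0.37 (adjusted p = 0.0972) for NRIP1, a corepressor that binds receptors in the presence of hormone. The other corepressor and coactivator genes lay between them. In all, 2 of the 14 members tested rose and 0 fell (median log2 fold change 0.30), and the same 2 of 14 were called without any 1 of the 4 libraries.

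Several genes that carry or break down RA rose. CYP26B1, the second RA-degrading enzyme, went from 0.203 and 0.223 to 157 and 58.8 CPM, a log2 fold change of 8.97 ± 1.08 (adjusted p = 0.00133). CYP26A1 changed by 5.11 ± 0.83 (adjusted p = 0.00576). CRABP2, which carries RA to the nucleus, went from 129.6 and 156 to 4380.4 and 3174 CPM, a change of 4.72 ± 1.04 (adjusted p = 0.0229). The RA libraries of these 3 genes lay many fold above the untreated ones, although RA replicate 1 of CYP26B1 was over 2-fold above replicate 2. DHRS3, a reductase that returns retinaldehyde to retinol, went from 8.94 and 8.24 to 80.0 and 52.8 CPM, with a change of 2.95 ± 0.62 (adjusted p = 0.0191). The third family member CYP26C1 was at 0.814 and 1.74 CPM at day 5 and did not pass (3.21 ± 0.99, adjusted p = 0.0761). STRA6, the membrane receptor for retinol, was at 12.1 and 11.0 CPM at day 0 and 41.9 and 100.5 CPM at day 5 and did not pass either (2.62 ± 0.83, adjusted p = 0.0833). CRABP1, a second RA carrier, was at 61.4 and 66.3 CPM at day 0 and 81.4 and 174 CPM at day 5 without passing (1.00 ± 0.52, adjusted p = 0.272).

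None of the enzyme genes that make RA was called. ALDH1A1, ALDH1A2 and ALDH1A3 encode the retinaldehyde dehydrogenases that form RA. At day 5 ALDH1A1 was at 0.163 and 0.0875 CPM (-1.50 ± 0.99, adjusted p = 0.393) and ALDH1A2 at 0.509 and 0.336 CPM (-0.68 ± 0.98, adjusted p = 0.728). ALDH1A3 was at 7.24 and 11.8 CPM at day 0 and 0.915 and 0.934 CPM at day 5, so its libraries did not overlap, but the change did not pass the test (-3.36 ± 0.97, adjusted p = 0.0608). LRAT, which stores retinol as esters, was at 81.6 and 151 CPM at day 0 and 19.1 and 26 CPM at day 5 without passing (-2.36 ± 1.04, adjusted p = 0.193). The retinol dehydrogenases RDH10 and RDH11 had changes of 1.25 and -0.16, the binding proteins RBP4, RBP7 and FABP5 of 1.12, -2.39 and -0.12, and the carotene cleaver BCO1 of 2.04, all without passing, and DHRS9 had no count in any of the 4 libraries. Altogether 5 of 19 tested members of the metabolism and transport list rose and 0 fell, with a median log2 fold change of 1.12. The number that rose was 2 without untreated replicate 1, 3 without untreated replicate 2 or RA replicate 1 and 5 without RA replicate 2, and CYP26B1 was among those that held in all 14 fits. Among 12 tested genes whose names record an RA response in other cells, GPRC5A (4.67 ± 0.59), RAI1 (2.10 ± 0.23), TNFAIP2 (1.86 ± 0.32) and RARRES1 (1.63 ± 0.44) rose and the receptor tyrosine kinase gene RET fell (-2.38 ± 0.53). Of these, 3 rose without untreated replicate 1 or RA replicate 2 and 2 without untreated replicate 2 or RA replicate 1, and the fall of RET was lost without any 1 of the 4. The median of that list was 0.21 with edgeR but lay below the median of all genes with limma on RPKM.

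**Figure D2:**
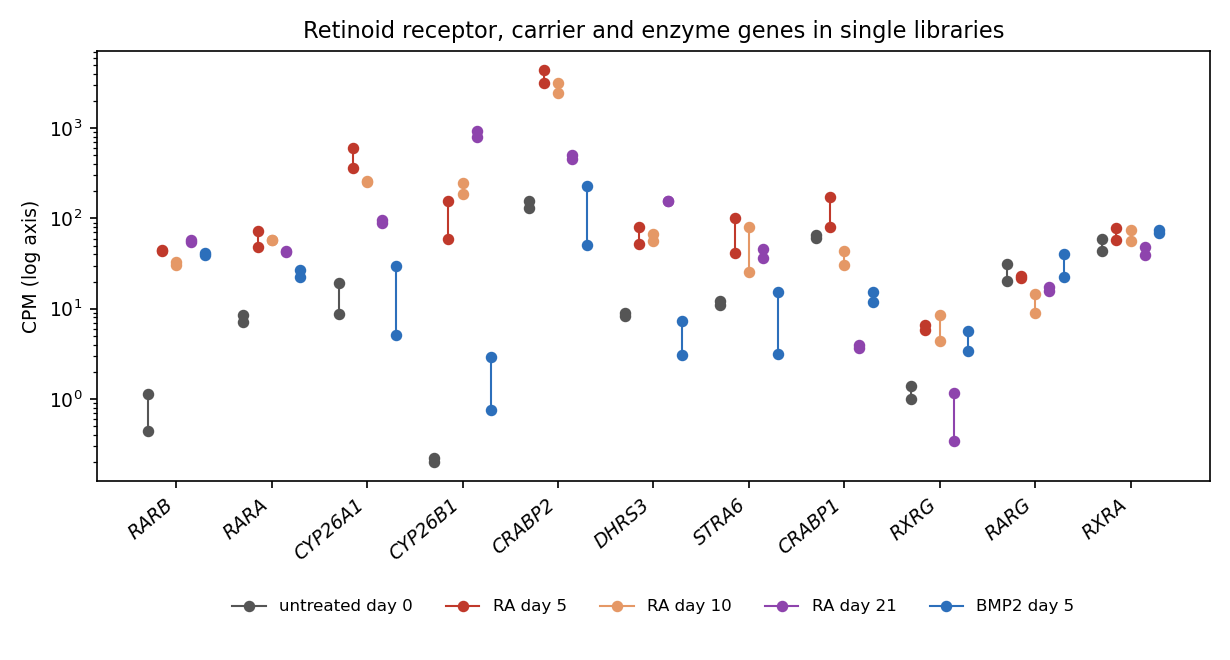
CPM of 11 retinoid genes on a log axis, with 1 point per library, a line joining the 2 libraries of a group and a colour per group. At RA day 5 (red) CYP26B1, CRABP2 and DHRS3 lie above both untreated and BMP2 day 5 libraries, whereas the RARB points lie at 44.4 and 43.6 CPM with RA and at 41.5 and 39.2 CPM with BMP2.

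Other nuclear receptors changed with them. NR2F1, an orphan receptor of the COUP-TF family that acts in the developing nervous system, went from 0.122 and 0.0417 to 63.8 and 61.6 CPM, a log2 fold change of 9.65 ± 0.66 (adjusted p = 5.34e-05). Its close relative NR2F2 went from 0.284 and 0.390 to 57.6 and 22.4 CPM, a change of 6.86 ± 0.69 (adjusted p = 0.000552). Both genes were nearly silent in untreated cells and both calls held in all 14 fits. Smaller rises were seen for NR2F6 (1.02 ± 0.21), the lipid-sensing PPARA (1.60 ± 0.39), the thyroid hormone receptor gene THRA (1.08 ± 0.21) and NR2C1 (0.69 ± 0.18). In the list 6 of 30 tested members rose and 0 fell, with a median of 0.48, and 2 rose without untreated replicate 1, untreated replicate 2 or RA replicate 1 and 4 without RA replicate 2.

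Homeobox genes of the TALE class, whose proteins bind DNA together with HOX proteins, rose at day 5. MEIS1 went from 0.284 and 0.584 to 109 and 86.5 CPM (7.77 ± 0.70, adjusted p = 0.00034) and MEIS2 from 1.83 and 3.63 to 209.5 and 221 CPM (6.29 ± 0.49, adjusted p = 0.000151). CDX1, a caudal-type gene that acts upstream of HOX genes, went from 0.0811 and 0.0557 to 24.1 and 10.7 CPM (7.97 ± 1.09, adjusted p = 0.00241), and PKNOX2 from 7.0 and 5.84 to 46.5 and 59.5 CPM (3.05 ± 0.23, adjusted p = 0.000132). No RA library of these 4 genes came near an untreated one, and their calls held in all 14 fits. PKNOX1 rose slightly (0.73 ± 0.19), a call that held in 2 of the 14 fits. TGIF1, a TALE corepressor that dampens RA and TGF-beta responses, fell by 1.39 ± 0.21, from 124 and 153 to 59.9 and 46.1 CPM. In all 5 of 12 tested members rose and 1 fell, with a median of 1.12, and 4 rose and 1 fell without any 1 of the 4 libraries.

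Outside HOX and pluripotency genes, the 12 largest rises among genes reaching 5 CPM included 2 without any count at day 0. MEOX1, a somite homeobox gene, had no count in untreated cells and 4.35 and 29.1 CPM at day 5, at least 676-fold higher against a floor of 3 counts over the group. MMRN1, a secreted multimerin of platelets and endothelium, had none and then 1.91 and 12.6 CPM, at least 294-fold higher. RA replicate 2 was well above replicate 1 for both genes. CLDN2, a tight junction claudin, went from 0 and 0.0557 to 26.7 and 62.7 CPM (10.36 ± 1.22, adjusted p = 0.00121) and LMOD1, a leiomodin of smooth muscle, from 0.122 and 0.0278 to 31.2 and 12.1 CPM (8.26 ± 1.01, adjusted p = 0.00138). CD22 and its chromosomal neighbour MAG, which encode sialic acid-binding lectins of B cells and of myelin, went from 0.0406 and 0.0557 to 43.0 and 24.6 CPM (9.36 ± 1.15, adjusted p = 0.00146) and from 0.0811 and 0 to 12 and 5.97 CPM (7.89 ± 1.17, adjusted p = 0.00365). WNT9B, a WNT ligand, was read once in all at day 0 and stood at 15.1 and 3.59 CPM at day 5, and PAX7, a dorsal neural tube and muscle precursor factor, was read 2 times and stood at 4.11 and 14.2 CPM. H19, NR2F1, CYP26B1 and CDX1 complete the 12. All of these except WNT9B and PAX7 held in all 14 fits.

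The 12 largest falls outside pluripotency genes, by the same rule, included a marker of the tumour and a gene of head patterning. OTX2, a homeobox gene of forebrain and midbrain that is also active in the early epiblast, went from 107 and 108 to 6.43 and 2.45 CPM (-4.60 ± 1.11, adjusted p = 0.0332). TNFRSF8, which encodes CD30, a surface marker used to diagnose embryonal carcinoma, went from 62.0 and 61.5 to 2.40 and 3.85 CPM (-4.30 ± 0.80, adjusted p = 0.0106). MYH2, a skeletal myosin heavy chain gene, went from 21.2 and 17.7 to 0.122 and 0.146 CPM (-7.15 ± 0.98, adjusted p = 0.00244), and LCK, a kinase gene of T cells, from 16.4 and 4.86 to 0.163 and 0.190 CPM (-5.89 ± 1.40, adjusted p = 0.0411). In these 4 genes each untreated library lay far above each RA library. The long noncoding RNAs LINC-ROR, known from reprogramming of pluripotent cells, and LINC00698 went from 31.6 and 26.5 to 0.488 and 2.64 CPM (-4.20 ± 0.87, adjusted p = 0.032) and from 23.8 and 12.4 to 0.142 and 0.656 CPM (-5.47 ± 1.41, adjusted p = 0.0418). The other 6 were ACSM1 (-7.55 ± 1.68), TM4SF18 (-7.41 ± 1.66), GLIPR1L1 (-4.83 ± 0.83), GLB1L3 (-4.60 ± 1.20), MGAT4C (-4.44 ± 1.09) and BCL2L14 (-4.39 ± 0.74). Of these 12 genes MYH2 alone held in all 14 fits, and the others held in 4 (GLB1L3) to 12 (BCL2L14) of them.

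**Figure D3:**
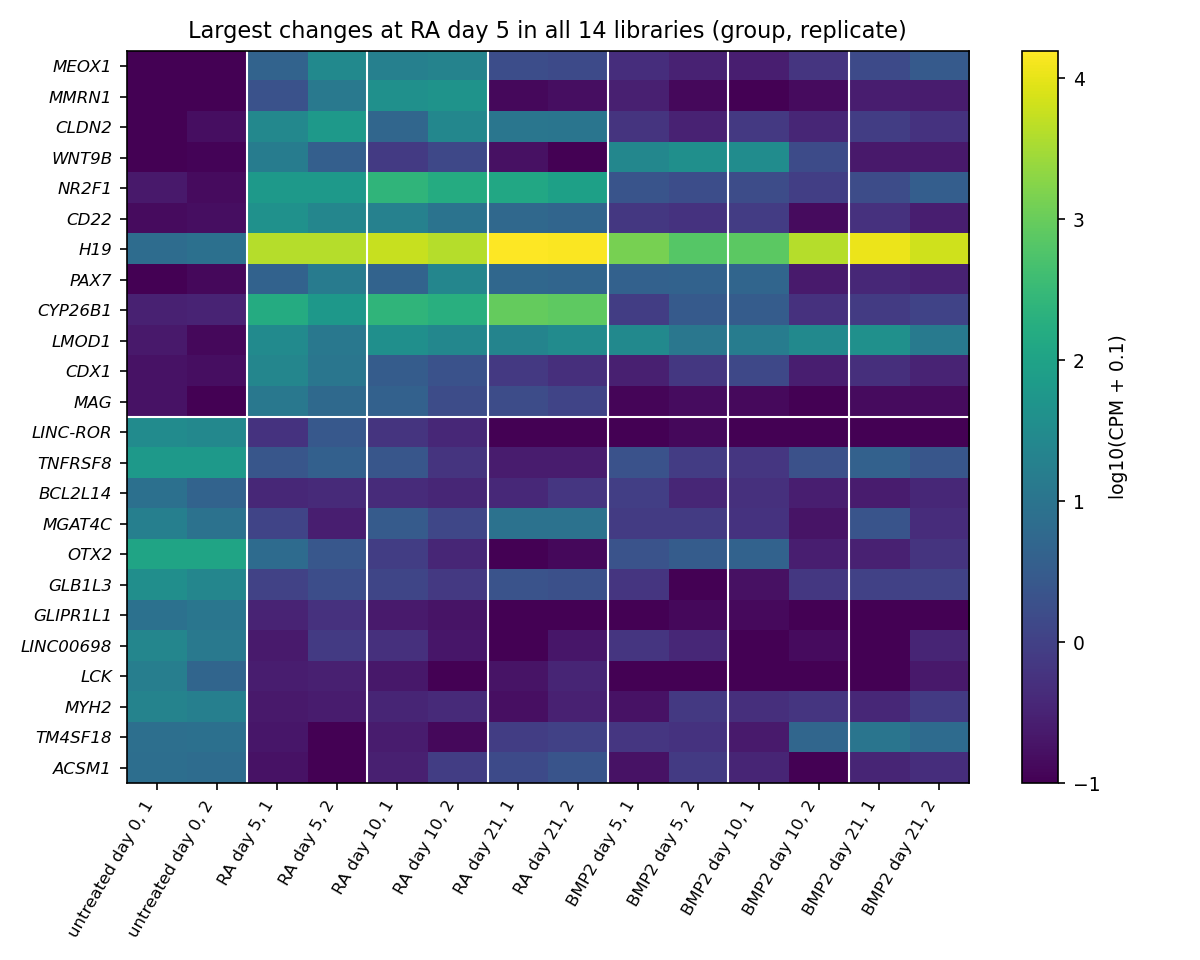
log10(CPM + 0.1) of the 12 largest rises (upper block) and the 12 largest falls (lower block) in each of the 14 libraries, labelled by group and replicate. The upper genes are dark in both untreated columns and bright in both RA day 5 columns, H19 most of all, and the lower genes show the reverse.

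By change in mean CPM rather than by fold, the top of the list was formed by H19, an imprinted noncoding RNA, and CRABP2. H19 stood at 6.65 and 8.06 CPM in untreated cells and at 4090.1 and 4116 CPM at RA day 5 (9.12 ± 0.87, adjusted p = 0.000397), with the replicates of each group close to each other. The others were the heparin-binding growth factor gene MDK (midkine, 2.15 ± 0.52), the desmosomal plakophilin PKP2 (3.36 ± 0.42), the signalling regulator RGS5 (3.38 ± 0.59), SKAP2 next to the HOXA cluster (7.79 ± 0.51), the kinase anchoring protein AKAP12 (2.28 ± 0.32) and the actin bundler FSCN1 (1.13 ± 0.29). SKAP2 went from 3.29 and 1.68 to 467 and 625 CPM, while PKP2 (974 and 451 CPM at day 5) and RGS5 (964 and 320.3 CPM) were over 2-fold higher in RA replicate 1 than in replicate 2. The largest losses in CPM were those of the chaperones HSPA8 (-0.84 ± 0.15) and HSPD1 (-0.83 ± 0.19), the nucleolar protein gene NCL (-0.74 ± 0.19), the surface sialomucin PODXL (-1.36 ± 0.36), SERBP1 (-0.65 ± 0.18), the gap junction gene GJA1 (-1.68 ± 0.23), the Polycomb gene PHC1 (-2.21 ± 0.21) and the selenophosphate synthetase SEPHS1 (-2.03 ± 0.22). GJA1 went from 1053 and 1067 to 335 and 327 CPM and PHC1 from 860.5 and 817 to 148 and 215 CPM. The losses of GJA1, PHC1 and SEPHS1 held in all 14 fits, and those of the other 5 in 3 to 11 fits. Of the gains, those of H19, PKP2, SKAP2 and AKAP12 held in all 14 fits, and those of CRABP2, MDK, RGS5 and FSCN1 did not.

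Beyond single genes, 35 lists of pathways, cell types and complexes were described, with 793 genes of which 765 were tested: 108 rose and 36 fell, and 31 and 10 of these held in all 14 fits. No list was tested as a set, and counts are given beside the 5.59% and 2.72% of all genes. The lists were written with earlier results of these data known, so a share above these is not an independent result. In a short list 1 call can exceed 5.59%, as with 1 of 11 keratins and intermediate filaments. The highest shares of rising members were found in the TALE and CDX list, the imprinted and IGF list, the list of genes named for an RA response, the mesoderm list and the axon guidance list. The oncofetal list had the highest share of falling members, at 5 of 15.

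**Figure D4:**
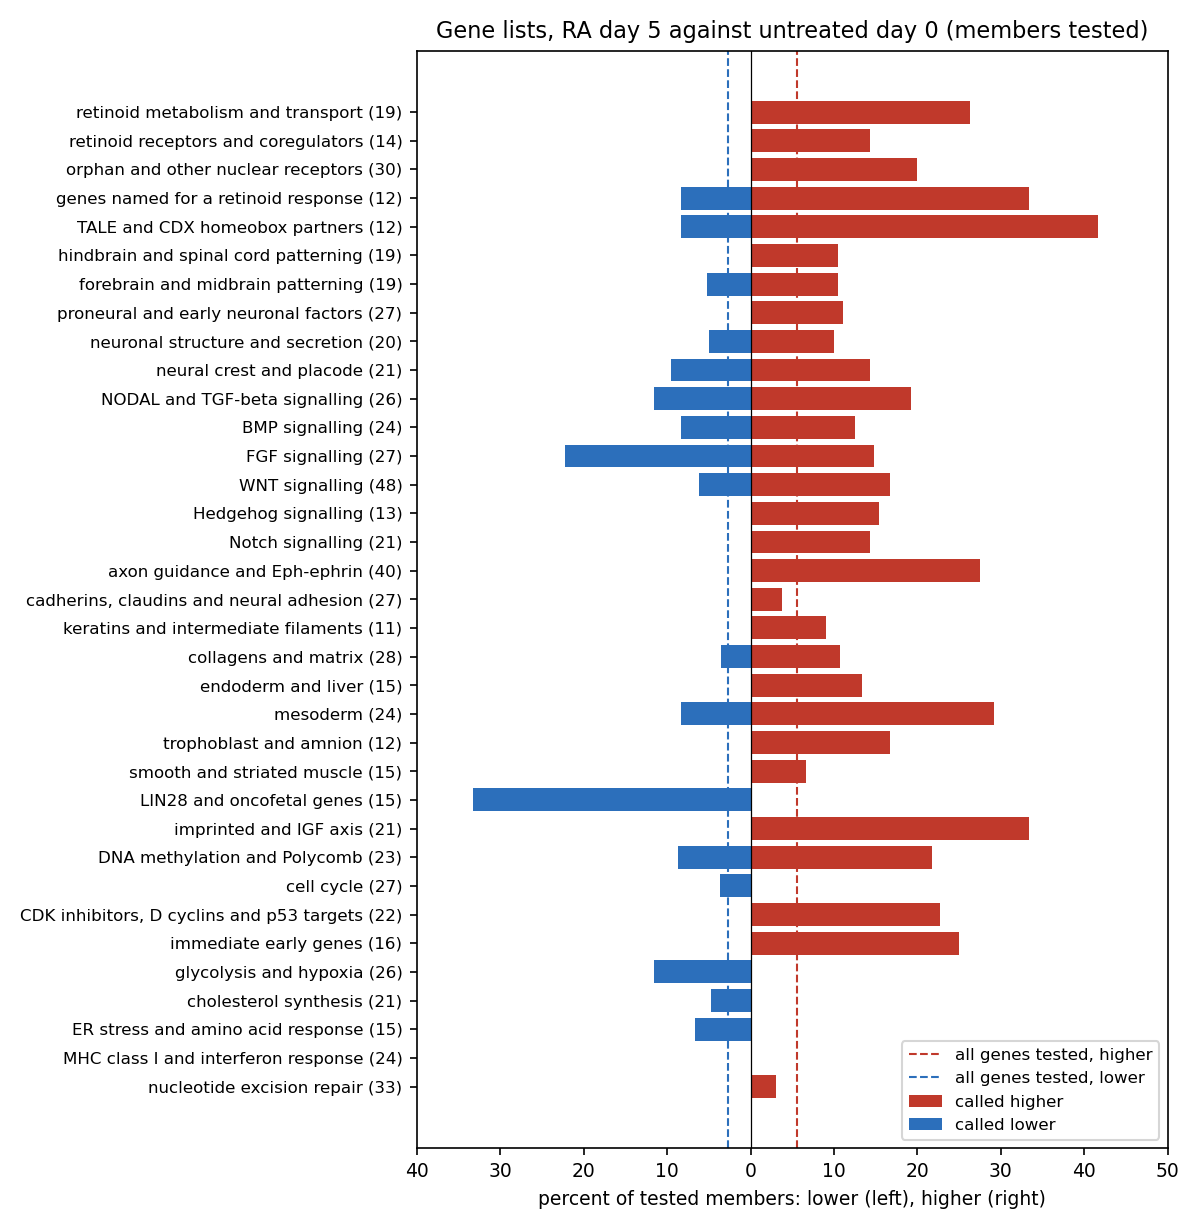
Bars give the percent of tested members of each list that were called higher (right, red) or lower (left, blue) at RA day 5, with the number tested in brackets and dashed lines at 5.59% and 2.72%, the shares of all genes. Most lists, which were written with earlier results of these data known, exceed the share of all genes that rose. The oncofetal, cell cycle, glycolysis, cholesterol, ER stress and MHC lists have no member called higher.

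Genes called made up 10.5% of the hindbrain and spinal cord list, 15.8% of the forebrain and midbrain list and 11.1% of the proneural list, against 8.31% of all genes. PAX6, a factor of neural progenitors, went from 2.49 and 3.16 to 18.8 and 75.9 CPM (4.06 ± 0.65, adjusted p = 0.00539), with RA replicate 2 well above replicate 1 and both above day 0. Of 19 hindbrain and spinal cord genes tested, PAX6 and PAX7 rose and 0 fell (median 1.17), with 0 rising without either untreated replicate and 2 without either RA replicate. Of 19 forebrain and midbrain genes, VAX2 (2.29 ± 0.59) and DLX2 (4.76 ± 1.19) rose and OTX2 fell, with a median of -0.25 that turned positive with limma on RPKM of the 6 genes kept there. No member rose without untreated replicate 1 or RA replicate 1, 1 rose without untreated replicate 2 or RA replicate 2, and the fall of OTX2 was lost without any 1 of these 4 libraries. Among 27 proneural and early neuronal factors, ISL1 of motor and sensory neurons (7.18 ± 1.12), POU3F2 (3.35 ± 0.71) and ZIC1 (3.29 ± 0.67) rose, and 1 of the 27 rose without untreated replicate 1, 0 without untreated replicate 2 and 2 without either RA replicate. Among 20 genes of neuronal structure and secretion, the neurofilament gene NEFM rose, from 32.0 and 28.4 to 119.8 and 146 CPM (2.14 ± 0.32, adjusted p = 0.00379), as did the synaptic SNAP25 (3.04 ± 0.68), and the synaptic vesicle gene SYP fell (-2.20 ± 0.41), with a list median of -0.39. The rises numbered 0 without untreated replicate 2 and 1 without each of the other 3 libraries, and the fall was lost without untreated replicate 1 or RA replicate 1. In a list of 27 cadherins, claudins and adhesion genes, which does not hold CLDN2, the 1 gene called was NCAM1, the neural cell adhesion molecule (2.07 ± 0.37, adjusted p = 0.00853), and it was lost without untreated replicate 2 or RA replicate 1.

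Among genes that steer growing axons, semaphorins, ephrins and their receptors rose. Of 40 tested, 11 rose and 0 fell, with a median log2 fold change of 0.97. PLXNA2, a semaphorin receptor, went from 10.1 and 20.7 to 499 and 459 CPM (4.95 ± 0.61, adjusted p = 0.00145), and SEMA3C, a secreted semaphorin, from 0.973 and 3.03 to 53.6 and 60.2 CPM (4.81 ± 0.69, adjusted p = 0.00325). ROBO2, a receptor for SLIT proteins, went from 3.35 and 1.98 to 79.8 and 60.3 CPM (4.72 ± 0.82, adjusted p = 0.00807), and EPHB3, an ephrin receptor, from 5.76 and 3.66 to 84.0 and 82.1 CPM (4.14 ± 0.81, adjusted p = 0.014). The RA replicates of these 4 genes lay close together and far above day 0. The others that rose were the ephrins EFNA1 (3.68 ± 0.52) and EFNB2 (2.04 ± 0.28), the ephrin receptor EPHB2 (1.86 ± 0.31), the semaphorin co-receptors NRP1 (2.44 ± 0.44) and NRP2 (2.28 ± 0.38), and the semaphorins SEMA3D (3.06 ± 0.50) and SEMA6D (2.27 ± 0.42). Without either untreated replicate 5 rose, without RA replicate 1 7 rose and without RA replicate 2 11 rose, and PLXNA2, SEMA3C, EFNA1 and EFNB2 held in all 14 fits. With limma on log2(RPKM + 1), which kept 18 of the genes, 5 rose and 2 fell.

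The FGF pathway, which sustains pluripotent human cells, changed in both directions. Of 27 tested members 4 rose and 6 fell, with a median of -0.40. The ligand genes FGF2 (-1.79 ± 0.34) and FGF4 (-3.33 ± 0.84) fell, and FGF9 (5.30 ± 0.61) and FGF18 (2.47 ± 0.52) rose. FGF2 went from 107 and 111 to 29.4 and 33.6 CPM and FGF9 from 0.365 and 0.417 to 23.7 and 7.37 CPM, and both replicates of each group lay on the same side for both genes. The feedback inhibitors SPRY1 (-1.46 ± 0.30), SPRY2 (-1.68 ± 0.41) and SPRY4 (-2.33 ± 0.31) and the target ETV4 (-1.88 ± 0.28) fell, whereas the inhibitors DUSP6 (1.95 ± 0.44) and SPRED2 (1.71 ± 0.24) rose. SPRY4 went from 74.9 and 99.1 to 20.2 and 14.3 CPM and DUSP6 from 105 and 120.0 to 506 and 361 CPM, and the libraries of the groups did not overlap for either. Without either untreated replicate 2 rose and 2 fell, without RA replicate 1 2 rose and 1 fell, and without RA replicate 2 4 rose and 2 fell.

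NODAL signalling, the other support of pluripotency, was also divided. NODAL, the ligand gene, went from 0.446 and 1.34 to 18.4 and 5.41 CPM (3.73 ± 0.91, adjusted p = 0.0348), and LEFTY1, a secreted NODAL inhibitor, from 2.01 and 12 to 103 and 40.5 CPM (3.35 ± 0.86, adjusted p = 0.0412). TDGF1, the co-receptor that NODAL needs, went from 337 and 371 to 8.46 and 20.6 CPM (-4.61 ± 0.63, adjusted p = 0.00242), and GDF3, a ligand of the same class, from 382 and 283 to 34.9 and 45.2 CPM (-3.05 ± 0.51, adjusted p = 0.00669). RA replicate 1 was the higher one for NODAL and LEFTY1 and the lower one for TDGF1 and GDF3. TGFB2 (5.63 ± 1.21), INHBE (2.22 ± 0.56) and the signal transducer SMAD3 (0.89 ± 0.21) rose and the type I receptor gene ACVR1C fell (-1.88 ± 0.49), giving 5 of 26 higher and 3 lower (median -0.11). TGFB2 at day 5 was at 51.2 and 3.66 CPM, far higher in replicate 1. The rises numbered 0 without untreated replicate 1 or RA replicate 1, 1 without untreated replicate 2 and 4 without RA replicate 2, and the falls 2, 2, 1 and 3 without untreated replicate 1, untreated replicate 2, RA replicate 1 and RA replicate 2. The fall of TDGF1 held in all 14 fits.

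In the BMP list the ligand gene GDF6 (4.08 ± 0.77), the secreted inhibitor NOG (2.14 ± 0.42) and the intracellular inhibitor SMAD6 (2.17 ± 0.37) rose and the receptor gene BMPR1A (-0.89 ± 0.18) and the target ID2 (-0.94 ± 0.26) fell, 3 and 2 of 24 (median 0.14). NOG went from 3.12 and 5.34 to 23.1 and 14.4 CPM and BMPR1A from 178 and 177 to 97.5 and 93.5 CPM. No member rose without either untreated replicate or RA replicate 1, and 5 members rose without RA replicate 2, while 1 member fell without RA replicate 1 and 0 without any other of these libraries.

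The WNT list, which does not hold WNT9B, had 8 of 48 tested members higher and 3 lower, with a median of 0.62. The ligand genes WNT2B (4.14 ± 0.85), WNT4 (2.59 ± 0.61) and WNT11 (3.20 ± 0.86), the enhancer RSPO3 (3.41 ± 0.79), the receptors FZD2 (1.15 ± 0.27), FZD4 (2.54 ± 0.45) and FZD7 (1.14 ± 0.18) and the secreted modulator SFRP4 (5.53 ± 1.46) rose. The receptor FZD5 (-2.35 ± 0.31), the repressor TCF7L1 (-1.75 ± 0.24) and the secreted inhibitor WIF1, at 1.10 and 2.02 CPM at day 0 and 0 and 0.0292 CPM at day 5, fell. FZD5 went from 92.1 and 98.6 to 16.4 and 21.0 CPM while FZD7 went from 85.1 and 85.4 to 178 and 198 CPM, and for neither did the groups overlap. TCF7L1, which represses WNT targets in pluripotent cells, went from 114 and 132 to 36.4 and 37.0 CPM (-1.75 ± 0.24, adjusted p = 0.00274). The 3 falls held in all 14 fits, but the rises numbered 1 without untreated replicate 1 or RA replicate 1, 2 without untreated replicate 2 and 8 without RA replicate 2.

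For Hedgehog, the co-receptor gene CDON went from 26.1 and 21.6 to 138 and 184 CPM (2.75 ± 0.28, adjusted p = 0.000618) and the secreted antagonist HHIP from 0.446 and 1.16 to 12.7 and 12.4 CPM (3.95 ± 0.60, adjusted p = 0.00406). These were the 2 of 13 tested members that rose, with 0 lower, and both held in all 14 fits. For Notch, the effector genes HES1 (1.10 ± 0.22), HES4 (2.06 ± 0.35) and HEYL (3.39 ± 0.83) rose, 3 of 21, with 0 lower. Only 1 Notch gene rose without untreated replicate 1 and 0 without untreated replicate 2, and 2 rose without either RA replicate.

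Several lists of non-neural fates had members that rose, and the summed RNA of these lists was higher in RA day 5 replicate 1 than in replicate 2. GATA6, an endoderm and mesoderm factor, went from 0.548 and 0.264 to 32.0 and 11.4 CPM (5.76 ± 0.66, adjusted p = 0.00101), and FOXA1, a forkhead factor of endoderm and floor plate, from 0.0406 and 0.0557 to 15.9 and 5.95 CPM (7.74 ± 0.85, adjusted p = 0.00128). These 2 of the 15 tested endoderm genes rose, 0 fell, and both held in all 14 fits. Among mesoderm genes MEOX1, TBX2 (5.13 ± 1.18), TBX3 (5.13 ± 1.06), OSR1 (5.85 ± 1.36), FOXF1 (4.45 ± 1.07), FOXC1 (2.52 ± 0.41) and TCF21 (2.91 ± 0.78) rose and EOMES and the receptor gene KDR (-3.77 ± 0.56) fell, 7 and 2 of 24. With limma, which kept 16 of the mesoderm genes, 1 rose and 0 fell on log2(RPKM + 1). On log2(RPKM + 0.1) 3 rose and 1 fell. EOMES, a primitive streak factor, was at 2.64 and 2.45 CPM at day 0 and had no count at RA day 5, at least 99.8-fold lower. The mesoderm genes that rose numbered 2 without untreated replicate 1 or RA replicate 1, 1 without untreated replicate 2 and 7 without RA replicate 2, and 1 fell each time.

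Of 15 neural crest and placode genes kept by limma, 0 rose on log2(RPKM + 1) and 3 on log2(RPKM + 0.1), and 2 fell on each. With edgeR TFAP2A (4.39 ± 0.64), DLX5 (6.16 ± 1.20) and MSX1 (6.09 ± 1.10) of this list rose and FOXD3 (-5.49 ± 0.93), which is also a pluripotency factor, and ETS1 (-2.87 ± 0.62) fell, 3 and 2 of 21. Here 1 rose without either untreated replicate, 2 without RA replicate 1 and 4 without RA replicate 2, and 1 fell in each of these fits except that without untreated replicate 2, where 0 fell. GATA3, a trophoblast factor that also acts in ectoderm, went from 4.60 and 4.06 to 93.4 and 32.6 CPM (3.86 ± 0.69, adjusted p = 0.00878), and with IGFBP3 made 2 of the 12 tested trophoblast and amnion genes, where 1 rose without untreated replicate 1, untreated replicate 2 or RA replicate 1. The placental hormone gene CGA, without a count at day 0, reached 1.83 and 0.729 CPM without passing the test (adjusted p = 0.0754). Among keratins and intermediate filaments KRT19 alone rose (1.77 ± 0.38), a call lost without untreated replicate 1, untreated replicate 2 or RA replicate 1. The simple epithelial keratin KRT8, at 987 and 1215 CPM at day 0 and 3529.9 and 1418 CPM at day 5, did not pass (1.17 ± 0.41, adjusted p = 0.109). Among 28 collagens and matrix genes COL2A1, the cartilage collagen, went from 3.45 and 1.67 to 414 and 239 CPM (7.01 ± 0.72, adjusted p = 0.000618), COL1A2 (2.70 ± 0.63) and COL5A2 (3.12 ± 0.75) rose and COL6A2 fell (-1.27 ± 0.32), while COL3A1, at 2.92 and 0.334 CPM at day 0 and 114 and 4.73 CPM at day 5, did not pass (5.23 ± 1.64, adjusted p = 0.0803). Without either untreated replicate or RA replicate 1 1 matrix gene rose, and without RA replicate 2 4 rose. The fall of COL6A2 was lost without any 1 of these 4 libraries. COL2A1 held in all 14 fits. Of 15 muscle genes MYH6 alone was called (1.10 ± 0.28), and it was lost without any 1 of the 4 libraries.

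The RA day 5 replicates were unlike each other in the summed CPM of these lists. Replicate 1 held 2.73 times the trophoblast and amnion RNA of replicate 2 (567 and 208 CPM), 2.26 times the mesoderm RNA, 2.10 times the muscle RNA, 1.98 times the keratin RNA, 1.88 times the neural crest RNA, 1.85 times the endoderm RNA and 1.71 times the collagen RNA. The members higher in replicate 1 were 26 of 28 for collagen, 14 of 15 for muscle and 9 of 12 for trophoblast and amnion. They were 14 of 21 for neural crest, 14 of 24 for mesoderm, 6 of 11 for keratin and 6 of 15 for endoderm. The endoderm sum thus does not reflect most of its members, and KRT8 made up most of the keratin sum. TBX3 alone gave 96.4 and 11.0 CPM of the mesoderm sums of 216 and 95.7 CPM in RA replicates 1 and 2. IGFBP3, whose levels are given below, made up most of the trophoblast and amnion sum in replicate 1 but not in replicate 2. Between the untreated replicates the ratios were 0.86 for trophoblast and amnion, 1.58 for mesoderm, 0.55 for muscle and 1.14 for collagen genes. Hindbrain and spinal cord RNA in RA replicate 1 was 0.67 times that of replicate 2. PAX6 alone gave 18.8 and 75.9 CPM of these sums of 148 and 222 CPM. Single genes differed more: TBX3 was at 96.4 and 11.0 CPM, ISL1 at 42.1 and 5.66, MSX1 at 39.1 and 4.89 and MEOX1 at 4.35 and 29.1. Both RA replicates of these genes lay above both untreated ones. Over all genes tested, 48.9% were higher in replicate 1. The part of this difference between libraries in the calls of these lists was not tested beyond the fits without 1 library.

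**Figure D5:**
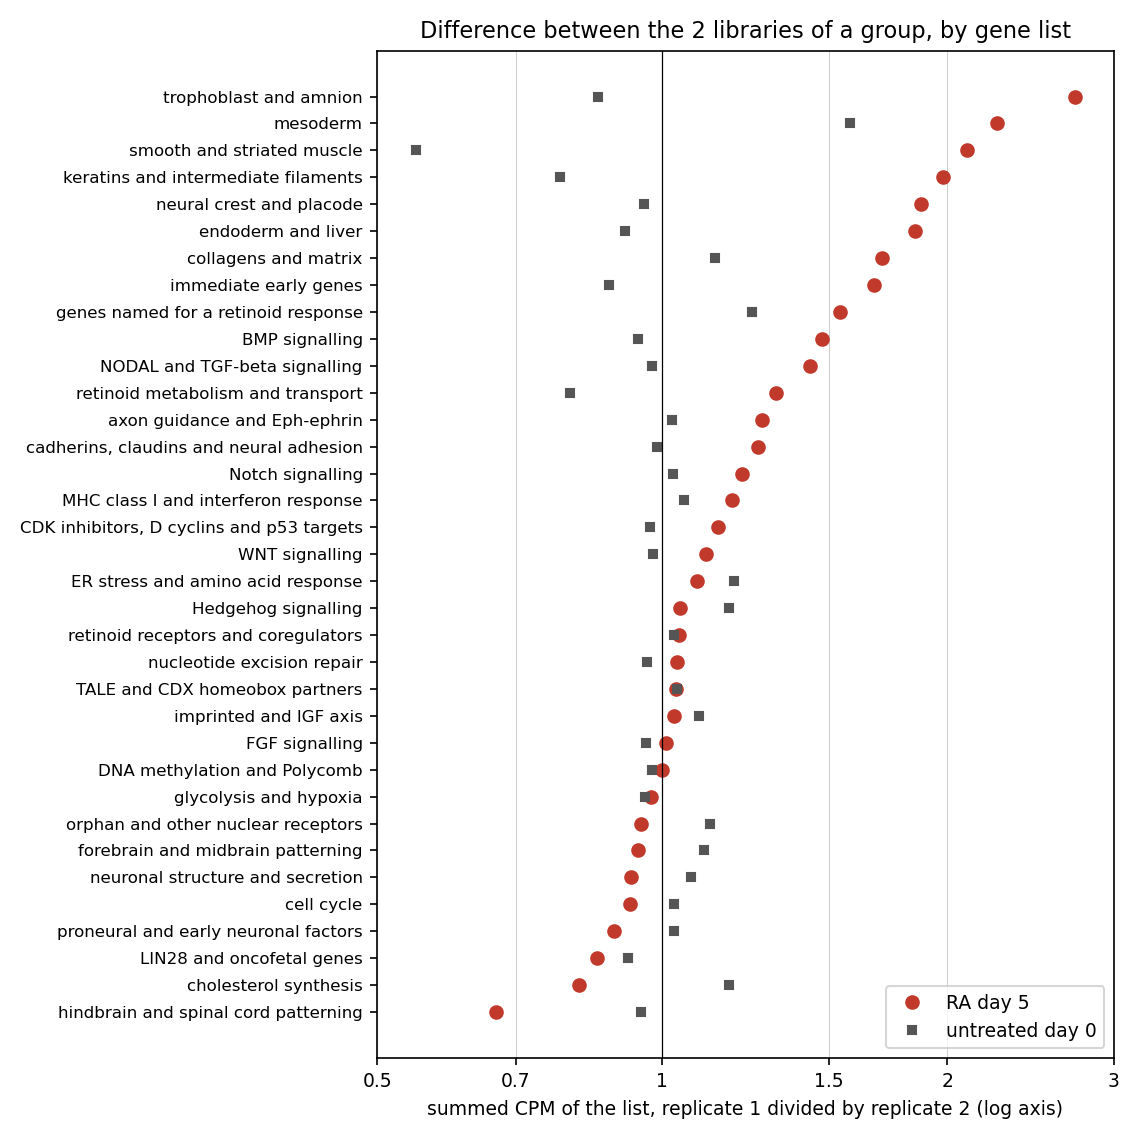
Summed CPM of each list in replicate 1 divided by replicate 2 on a log axis, for RA day 5 (red circles) and untreated day 0 (grey squares). For RA day 5 the ratio runs from 0.67 for hindbrain and spinal cord genes to 2.73 for trophoblast and amnion genes. Several of the sums are led by single genes.

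Genes of the insulin-like growth factor (IGF) axis and imprinted genes rose, 7 of 21 with 0 lower (median 1.21). Besides H19, the fetal growth factor IGF2 went from 1.44 and 2.35 to 17.7 and 24.1 CPM (3.45 ± 0.63, adjusted p = 0.00985), MEST from 30.5 and 22.1 to 206 and 184 CPM (2.89 ± 0.44, adjusted p = 0.00421) and PLAGL1, an imprinted zinc finger regulator, from 24.9 and 13.2 to 192 and 101 CPM (2.94 ± 0.40, adjusted p = 0.00236). The IGF-binding proteins IGFBP3 (5.39 ± 0.63), IGFBP5 (6.23 ± 0.54) and IGFBP6 (3.49 ± 0.72) rose too. IGFBP5 went from 2.07 and 3.16 to 115 and 281 CPM, higher in replicate 2, whereas IGFBP3 went from 4.10 and 5.62 to 331 and 77.0 CPM, higher in replicate 1. The number that rose was 5 without untreated replicate 1, 4 without untreated replicate 2, 6 without RA replicate 1 and 7 without RA replicate 2, and H19, IGFBP3, IGFBP5 and PLAGL1 held in all 14 fits. With limma on RPKM 1 of 17 members fell.

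The oncofetal list had 5 of 15 members lower and 0 higher, with a median of -1.03. The germline and pluripotency-associated DPPA2 (-2.19 ± 0.52), DPPA3 (-4.08 ± 1.00) and DPPA4 (-2.04 ± 0.21), the zinc finger gene ZSCAN10 (-3.67 ± 0.82) and the neuropeptide gene GAL (-2.23 ± 0.32) fell. DPPA4 went from 1008 and 1072 to 198 and 308 CPM and GAL from 87.1 and 88.2 to 16.4 and 21.1 CPM, and these 2, which held in all 14 fits, were the only ones left without any 1 of the 4 libraries. In the Polycomb and DNA methylation list PHC1 fell and its paralogue PHC2 went from 41.4 and 45.8 to 334 and 175 CPM (2.55 ± 0.26, adjusted p = 0.000662). JARID2, a cofactor of the methyltransferase complex, fell (-1.33 ± 0.24), and CBX7 (2.91 ± 0.69), RING1 (1.18 ± 0.21), BMI1 (0.88 ± 0.24) and the demethylating TET2 (0.62 ± 0.17) rose, 5 higher and 2 lower of 23. Without untreated replicate 1 2 rose and 2 fell, as without RA replicate 2, and without untreated replicate 2 or RA replicate 1 1 rose and 1 fell, and PHC1 and PHC2 held in all 14.

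Genes of the cell cycle had 1 call at day 5. Of 27 members CCNE1, the cyclin of S phase entry, fell (-0.96 ± 0.25) and 0 rose (median -0.07), and its call was lost without any 1 of the 4 libraries. TOP2A, a marker of proliferating cells, was at 947 and 733 CPM at day 0 and 733 and 941 CPM at day 5 (-0.01 ± 0.38, adjusted p = 1), with overlapping groups. Among regulators that restrain or time the cycle, 5 of 22 rose and 0 fell (median 0.90): CDKN2D, a CDK4/6 inhibitor, from 2.21 and 2.67 to 14 and 12.4 CPM (2.43 ± 0.37, adjusted p = 0.00435), its relative CDKN2C (2.87 ± 0.54), CDKN1B (0.61 ± 0.15), the antiproliferative BTG2 (2.06 ± 0.49) and CDK6 (2.09 ± 0.41), itself a cycle kinase. Only 1 rose without untreated replicate 1, untreated replicate 2 or RA replicate 1, 5 rose without RA replicate 2, and CDKN2D held in all 14 fits. The immediate early genes JUN (1.15 ± 0.24), JUNB (1.58 ± 0.36), JUND (1.29 ± 0.24) and FOSB (4.89 ± 1.18) rose, 4 of 16 with 0 lower, with 1 rising without untreated replicate 1 and 0 without untreated replicate 2 or RA replicate 1, and 15 of the 16 were higher in RA replicate 1 than in replicate 2.

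No member rose in the glycolysis, cholesterol and ER stress lists. In glycolysis and hypoxia HK1 (-1.16 ± 0.28), ALDOC (-1.64 ± 0.41) and EGLN3 (-1.62 ± 0.43) fell, 3 of 26 with 0 higher, and 0 were called without any 1 of the 4 libraries. In the cholesterol list 1 of 21 fell (median -0.39), or 0 without either untreated replicate or RA replicate 1. In the ER stress list the chaperone HSPA5 fell (-0.76 ± 0.15), 1 of 15. The HSPA5 call was lost without either untreated replicate or RA replicate 2. In the list of 24 MHC class I and interferon genes 0 were called (median 0.05), with B2M at 101 and 65.9 CPM at day 0 and 125 and 80.0 CPM at day 5. Of 33 NER genes tested, the subject of the study, 1 was called (3.03%), against 8.31% of all genes. This was ERCC1, whose protein cuts the damaged strand together with XPF. It rose from 19.4 and 17 to 37.7 and 30.6 CPM (0.91 ± 0.18, adjusted p = 0.0146), and 0 fell. With limma ERCC1 was called on log2(RPKM + 0.1) but not on log2(RPKM + 1). Its call was lost without untreated replicate 1 or 2 or RA replicate 1. The damage sensor gene DDB1 was at 731 and 693 CPM at day 0 and 741 and 703 CPM at day 5 (0.02 ± 0.24, adjusted p = 0.984). The median of the NER list was -0.07. With limma on RPKM as deposited it was 0.033 at an offset of 1 and 0.046 at 0.1. On RPKM scaled by the TMM factors it was -0.007 and -0.013.

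By class of transcript, 9.15% of 16084 protein-coding genes were called, 980 higher and 491 lower. Of 465 genes annotated as antisense RNAs 8.60% were called, 37 higher and 3 lower, and of 359 long intergenic RNAs 6.96%, 20 and 5. Of 935 processed pseudogenes 1.60% were called, 2 higher and 13 lower. Antisense genes overlap others, and the sources used here do not state whether strand entered the counting, so reads of the partner gene cannot be told apart from theirs. The same holds for named genes with most of their span inside other annotated genes, among them CYP26A1, CRABP2, CLDN2, MYH2, ACSM1, TM4SF18, GLIPR1L1, BCL2L14, IGF2, HHIP, TDGF1, LEFTY1, ETV4, EFNB2, SNAP25, FOSB, JUNB, TBX2, FZD4, NR2F6, BMI1, ALDOC, FOXD3, CHRNB4, ID2, HSPD1, RGS5 and TCF21, which are uncertain to that extent. MYH2 and MYH6 belong to a family of very similar myosin genes between which reads could be split.

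To set RA beside another agent after the same time in culture, RA day 5 was compared directly with BMP2 day 5. Of 19142 genes 2338 were called (12.2%), 1142 higher with RA (5.97%) and 1196 lower (6.25%). This count too rested on single libraries, with 502 calls without RA day 5 replicate 2, 888 and 1040 without BMP2 day 5 replicate 1 or 2, 1351 without RA day 5 replicate 1, 1471 and 1469 without RA day 21 replicate 1 or 2, and 4206 and 4221 without BMP2 day 10 replicate 1 or 2. Of the 1070 genes that rose with RA against day 0, 243 were also higher than with BMP2, 120 were lower and 707 were not called in this direct comparison. Of the 521 that fell, 65 were higher, 71 lower and 385 not called. Both comparisons use the RA day 5 libraries, so these counts are not independent. Against day 0, BMP2 day 5 had 29.2% of all genes called, 15.9% higher and 13.4% lower.

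Genes of retinoid handling were higher with RA than with BMP2, and the receptor gene RARB was not called. CYP26A1 was at 29.4 and 5.13 CPM with BMP2, a difference (RA over BMP2, log2) of 4.81 ± 0.82 (adjusted p = 0.00637). CYP26B1 was at 0.761 and 2.89 CPM (5.87 ± 0.91, adjusted p = 0.00424) and CRABP2 at 51.2 and 229.6 CPM (4.75 ± 1.04, adjusted p = 0.0178). For these 3 genes both RA libraries lay above both BMP2 libraries. RARB, in contrast, was at 41.5 and 39.2 CPM with BMP2 against 44.4 and 43.6 CPM with RA. The difference of 0.13 ± 0.48 (adjusted p = 0.899) did not pass, and the 2 groups lay within 6 CPM of each other. RARA was at 27.2 and 22.3 CPM (1.28 ± 0.22, adjusted p = 0.00623). DHRS3 (3.67 ± 0.64), CRABP1 (3.23 ± 0.56), STRA6 (2.93 ± 0.84), BCO1 (4.47 ± 0.95) and FABP5 (1.31 ± 0.38) were also higher with RA. In the metabolism and transport list 9 of 19 genes were higher and 0 lower. Of the transcription factors, NR2F1 (5.08 ± 0.49), MEIS2 (3.57 ± 0.43), CDX1 (5.44 ± 0.94), PKNOX2 (1.18 ± 0.22) and PAX6 (5.51 ± 0.70) were higher with RA, and the differences of NR2F2 (-0.36 ± 0.51, adjusted p = 0.691) and MEIS1 (0.94 ± 0.51, adjusted p = 0.255) did not pass.

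Among genes called both against day 0 and against BMP2, the 8 largest differences toward RA were those of FOXA1, which had no count with BMP2 (at least 424-fold higher), CHRNB4, a nicotinic receptor subunit (8.86 ± 0.94, adjusted p = 0.00204), MAG, at 0.0190 and 0.0472 CPM with BMP2 and 12 and 5.97 CPM with RA, CLDN2 (6.97 ± 1.00, adjusted p = 0.00316), LAMP5, a membrane protein of neurons (6.94 ± 1.16, adjusted p = 0.00589), DUSP9, a MAP kinase phosphatase (6.42 ± 0.73, adjusted p = 0.00125), MMRN1 (6.06 ± 1.08, adjusted p = 0.00936) and SKAP2 (6.02 ± 0.47, adjusted p = 0.00037). LEFTY1, set aside from that ranking among the pluripotency genes, had a difference of 7.99 ± 1.09 (adjusted p = 0.00272). The largest toward BMP2 were KCTD12 (-5.82 ± 0.37, adjusted p = 0.000129), TCIM (-5.64 ± 0.77, adjusted p = 0.00271), HTRA1, a secreted protease (-5.27 ± 0.51, adjusted p = 0.000832), LDLRAD4 (-5.25 ± 0.50, adjusted p = 0.00079), the leukotriene receptor CYSLTR2 (-4.39 ± 0.99, adjusted p = 0.0238), PITX1, a hindlimb homeobox gene (-4.30 ± 1.02, adjusted p = 0.0243), LRRN4 (-4.05 ± 0.88, adjusted p = 0.0171) and the protease PRSS23 (-4.01 ± 0.48, adjusted p = 0.00164). Collagens lay lower with RA than with BMP2 in 14 of 28 members and higher in 1. BMP list members lay lower in 9 of 24 and higher in 1, and FGF members higher in 7 of 27 and lower in 2. Of the cell cycle list 6 of 27 were higher with RA and 0 lower.

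Between RA day 5 and RA day 10, 0 of 19142 genes were called with edgeR (0.0%), 2629 had an unadjusted p under 0.05, and DESeq2 called 715. The limma fit on log2(RPKM + 1) called 89. There were 0 calls without RA day 5 replicate 2, 1 without RA day 5 replicate 1, 8 without RA day 10 replicate 2, and 232 and 230 without BMP2 day 10 replicate 1 or 2. The levels of single genes at later times are given side by side. NR2F1 stood at 250.01 and 154 CPM at day 10 and 128 and 89.4 CPM at day 21, and CYP26B1 at 247 and 186 CPM at day 10 and 934 and 796 CPM at day 21. CYP26A1 stood at 255 and 259 CPM at day 10 and 89.2 and 96.0 at day 21, and CRABP2 at 3138 and 2445 CPM and 507 and 462 CPM. Among the RA libraries CYP26B1 was highest and CYP26A1 lowest at day 21. CDX1 stood at 3.08 and 1.94 CPM at day 10 and 0.613 and 0.391 CPM at day 21 and LEFTY1 at 7.73 and 4.38 CPM and 0.164 and 0.108 CPM, both below day 5, while H19 reached 15661 and 14495 CPM and IGF2 863 and 660.3 CPM at day 21. NEFM, at 718 and 369 CPM, had a change from day 5 to day 10 of 2.03 ± 0.32 (adjusted p = 0.0951). ALDH1A1 and ALDH1A2, the RA-forming enzymes that were under 1 CPM at day 5, stood at 94.2 and 109 CPM and 55.5 and 30.5 CPM at day 21.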

How the data were processed

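The authors deposited per-gene read counts and RPKM values for 14 libraries of NT2 cells. The submitters' processing notes name STAR, featureCounts, DESeq2 and hg19; their versions, settings and use of strand are not given in the sources used here. The deposited counts were used as they are; the deposited RPKM values, scaled by gene length and depth, entered only the limma alternatives. The lengths implied by RPKM matched the whole gene span within 1% for 89.0% of 5814 genes, so counts may include intronic reads. From 66.0% to 73.5% of counts between 1 and 19 were even, so fragments may have been counted by both reads and counting intervals would be too narrow.

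Counts of all 14 libraries were fitted with edgeR 4.0.16 (R 4.3.3; TMM, filterByExpr with a minimum count of 10, quasi-likelihood F test), keeping 19142 of 25952 genes. Calls needed a Benjamini-Hochberg adjusted p under 0.05 over all genes. The SE is the log2 fold change divided by the square root of F. Alternatives used DESeq2 1.42.0, limma 3.58.1 on log2(RPKM + 1) or + 0.1 with an RPKM minimum of 0.5, other filters and designs, and leaving out each library. No library file repeated another. Python 3.11.15 with pandas 2.3.3 made the tables. The script was tested on simulated data.

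Named genes were the 12 largest called fold changes each way at 5 CPM or more in the higher group, the 8 largest CPM differences each way, up to 4 per list, retinoid genes, the 8 largest called differences from BMP2 day 5 each way and fixed markers. HOX genes and a list of pluripotency genes that includes NODAL and LEFTY1 were set aside from the rankings. All called list members were added after their values were seen. The comparison, the genes and the lists were chosen with earlier results of these data known. Gene symbols were matched for 25214 of the genes. Some named genes are not reported here.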

Additional observations from a re-analysis of the deposited data

Results flagged for a closer look

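Among the genes named here, 7 were called in opposite directions from day 0 by RA and BMP2, with a difference between the agents that itself passed the edgeR test. Both comparisons with day 0 share the untreated libraries, so no count of shared or opposite directions is given over all genes. The 7 are described by their log2 difference, RA day 5 over BMP2 day 5. CHRNB4, a nicotinic receptor subunit gene, was at 1.89 and 1.34 CPM at day 0, 18.0 and 25.1 CPM with RA and 0.0951 and 0 CPM with BMP2, a difference of 8.86 ± 0.94 (adjusted p = 0.00204). LEFTY1 was at 0.190 and 0.362 CPM with BMP2 (7.99 ± 1.09, adjusted p = 0.00272). DUSP9, a phosphatase gene that restrains MAP kinases, was at 0.933 and 1.42, 42.6 and 13.6 and 0.304 and 0.346 CPM in the same 3 groups (6.42 ± 0.73, adjusted p = 0.00125). For these 3 genes every RA library lay above, and every BMP2 library below, the untreated ones.

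The other 4 went the other way. KCTD12, which modulates GABA-B receptors, was at 55.7 and 76.2 CPM at day 0, 13.1 and 18.6 CPM with RA and 1177 and 619 CPM with BMP2, a difference of -5.82 ± 0.37 (adjusted p = 0.000129). HTRA1, a secreted protease, was at 18.8 and 23.4, 8.56 and 4.41 and 302 and 197 CPM (-5.27 ± 0.51, adjusted p = 0.000832), and LDLRAD4, an inhibitor of TGF-beta signalling, at 3.27 and 3.83, 1.28 and 0.554 and 31.7 and 37.4 CPM (-5.25 ± 0.50, adjusted p = 0.00079). COL6A2, a microfibrillar collagen, was at 38.2 and 30.1, 16 and 12.4 and 65.7 and 114 CPM (-2.66 ± 0.33, adjusted p = 0.00194). The call of RA against day 0, on which the opposite direction rests, was lost in at least 1 fit without a library for 6 of the 7. It was lost without any 1 of the 4 libraries compared for CHRNB4, HTRA1 and COL6A2. For LEFTY1 it was lost without untreated replicate 1 or either RA replicate, for LDLRAD4 without either untreated replicate or RA replicate 2, and for KCTD12 without RA replicate 1. Over all alternatives it was lost in 13 for LEFTY1, 14 for HTRA1 and 16 for COL6A2, and in 0 for DUSP9.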

How the results depend on the processing

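Between RA day 5 and untreated day 0 the 1591 calls became 364 in a test for at least a 2-fold change, 3236 with DESeq2, 2839 in a fit of the 4 libraries alone and 2879 without both BMP2 day 10 libraries, an alternative chosen after seeing the data. Leaving out 1 library at a time gave 345 to 2810. For RA day 5 against BMP2 day 5 the 2338 calls became 483, 4144 and 4288 in the 2-fold test, with DESeq2 and without both BMP2 day 10 libraries, and 502 to 4221 without 1 library. For RA day 10 against RA day 5, where edgeR called 0, DESeq2 called 715, edgeR without a filter on low counts 75, limma on log2(RPKM + 1) 89, the same on RPKM scaled by TMM 70, the fit without both BMP2 day 10 libraries 238, and fits without 1 library 0 to 232. Higher calls made up 63.9% against BMP2 day 5 with limma on log2(RPKM + 1), compared with 48.8%. Size factors by RLE, a minimum of 1 CPM and robust estimation kept the RA against day 0 count within 1.5 times. Over the named genes no alternative turned a called direction, 987 lost a call and 117 gained one of 7064 values. No paired analysis is given as a main result because same-numbered libraries did not deviate together (r = -0.093 between RA day 5 and day 0, 0.110 with BMP2 day 5, 0.070 with RA day 10). With the replicate number as a block, 1285, 2003 and 0 genes were called. Counts of all 14 libraries were also simulated, with 48 tested genes changed by each fold in RA day 5 alone. Of these, 8.33% of 2-fold, 56.2% of 4-fold and 81.2% of 16-fold changes were called. Far fewer genes were changed there than were called in the data, and the adjusted p depends on that number. These shares therefore do not tell how many changes of a given size the data could detect. The cause of the shifts between settings was not tested.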
